A study of Mus musculus with 30 samples.

Results

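Whole ovaries taken 3 months after a 10-day course of dosing were set against whole ovaries taken directly after the same course (0 months). All 30 libraries of the series took part, 15 at 3 months and 15 at 0 months, and they were chosen by the time in their titles alone. Adult female CD1 mice, an outbred stock, had been given DEHP (di(2-ethylhexyl) phthalate) at 20 or 200 ug/kg/day, DiNP (diisononyl phthalate) at 20 or 100 ug/kg/day, or the vehicle, with 3 libraries for each of these 5 treatments at each time. DEHP and DiNP are plasticizers of polyvinyl chloride. Each time therefore holds 12 libraries of phthalate-dosed mice and 3 of vehicle mice, and every mouse, vehicle mice included, went through the 10 days of dosing. Mice collected at 3 months were also 3 months older, so that age, time since dosing and the day of collection cannot be told apart, and the labels give no estrous stage. The labels do not say that replicates are separate mice, so the p-values measure the spread between these libraries, which may be technical.

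The ovary holds a finite store of primordial follicles, each an arrested oocyte wrapped in a few flat granulosa cells, and this store shrinks with age. Follicles that grow gain layers of granulosa cells, which make estradiol and the inhibins, and an outer theca, which makes androgens. After ovulation the remains of the follicle become a corpus luteum, which makes progesterone and later regresses, and macrophages take part in clearing regressing follicles and corpora lutea.

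The values are log2 CPM (log2 of read counts scaled to a common total) as the authors deposited them, for 18022 genes, of which 14740 had a mean above 0 and were tested. From the steps between low values, depth was approximately 25.025 to 37.7 M reads at 3 months and 24.7 to 42.1 M reads at 0 months. Between replicates the correlation over genes ran from 0.908 to 0.980. Ovarian identity was present in every library: the zona pellucida gene Zp3 had 4.30 to 5.77 log2 CPM at 3 months and 5.18 to 6.47 at 0 months, and the granulosa cell gene Foxl2 had 7.08 to 7.87 at 3 months and 7.41 to 8.60 at 0 months. The theca gene Cyp17a1 had 6.95 to 10.09 log2 CPM at 3 months and 4.22 to 9.95 at 0 months. The mean over 20 corpus luteum genes ran from 7.66 to 9.43 log2 CPM at 3 months, with a median of 9.05, and from 5.33 to 9.26 at 0 months, with a median of 8.12. Luteal level thus moved with time, and gene groups are given below also with the count that passed when the luteal mean of a library was added to the fit, and when the granulosa cell mean was added beside it. The granulosa cell mean moved with time as well, from 6.44 to 7.23 log2 CPM at 3 months and from 6.95 to 7.72 at 0 months. All 15 libraries at 3 months lay below its median at 0 months. Since both means and time moved together, their shares in a difference, or in a lost call, cannot be told apart. The 11 tested oviduct and ciliated cell genes averaged at most 2.21 log2 CPM at 0 months, but reached 4.28 in DEHP 20 replicate 2 at 3 months and 3.74 in a second library at 3 months. Of those 11 genes, and of 13 adipocyte and 4 erythrocyte genes, 0 passed in either direction. In whole organs, fewer cells of a type, less RNA per cell and a larger share of RNA from other cells cannot be told apart.

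Across the 5 treatments 1566 genes were higher and 1420 were lower at 3 months than at 0 months (limma with Benjamini-Hochberg adjustment, adjusted p under 0.05), which is 10.6% and 9.63%, together 20.3%, of the genes tested. Before adjustment 5173 genes had a p under 0.05, where chance alone would give 737. Most differences were small: the median log2 difference was 0.37 among the higher genes and -0.41 among the lower ones, and 126 higher and 46 lower genes differed by more than 2-fold. In 1349 of the higher and 1257 of the lower genes all 5 treatments differed in that direction. The calls rest on the mean of these same 5 differences, which favours such agreement. With no test applied, 32.3% of all genes tested had 1 sign in all 5 treatments. Lower genes prevailed among weakly expressed genes, with 190 higher and 307 lower at a mean of 0 to 2 log2 CPM, and higher genes prevailed among abundant ones, with 79 higher and 37 lower above 8 log2 CPM. Of all genes tested 50.7% were above 0 and 49.3% below 0 with no test applied. With luteal level in the fit 303 genes were higher and 224 lower, and with the luteal and granulosa cell means both in the fit 17 were higher and 6 lower. A call can weaken there while the difference stays. Ltbp2, the gene of smallest p, differed by 1.45 without the means and 1.48 with both. Its adjusted p by limma was 2.69e-07 and 0.00502. With both means 0 members passed in any list described below, except 1 complement gene and 2 matrix genes.

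**Figure D1:**
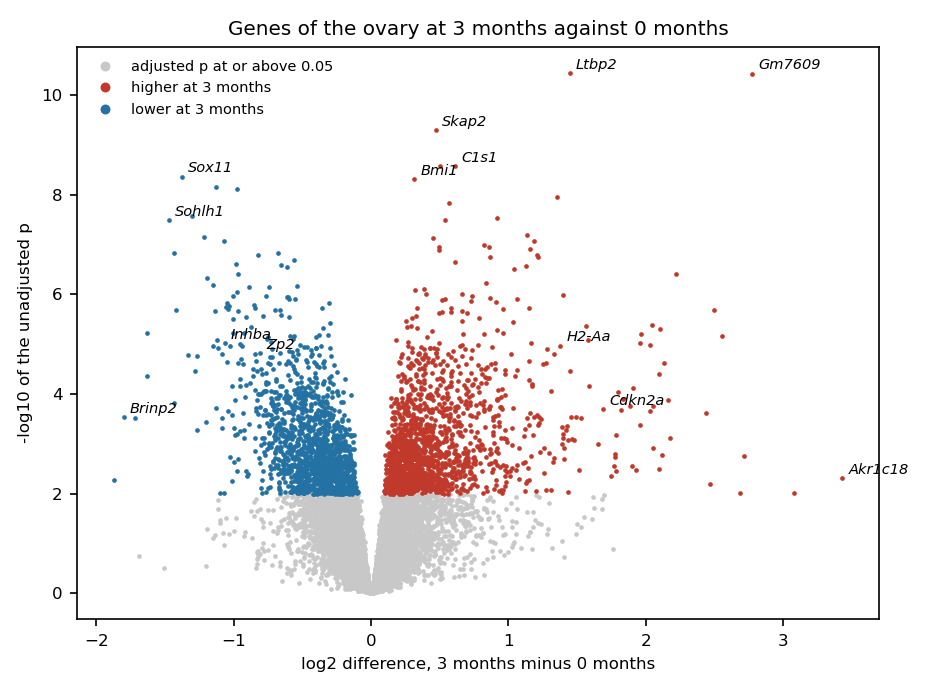
Each of the 14740 genes tested is a point, with the log2 difference (3 months minus 0 months) on the horizontal axis and -log10 of the unadjusted limma p on the vertical axis. The 1566 higher genes are red and the 1420 lower genes blue; Ltbp2 and Gm7609 have the smallest p, and Akr1c18 has the largest difference of all.

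Direction was then read in libraries that had played no part in the calls. Genes called from 4 treatments were looked up in the 6 libraries of the treatment left out. With vehicle left out, 94.9% of 863 higher genes and 97.3% of 862 lower genes had the same direction in the vehicle libraries, where 49.5% and 50.5% of all genes went that way. With DiNP 20 left out, 98.1% of 882 higher and 95.8% of 920 lower genes had the same direction there. With DEHP 20 left out, the shares were 94.2% of 747 and 96.2% of 582. They were smaller with DEHP 200 left out, at 81.9% of 1607 and 82.1% of 1399, and with DiNP 100 left out, at 81.7% of 1081 and 87.9% of 907.

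**Figure D2:**
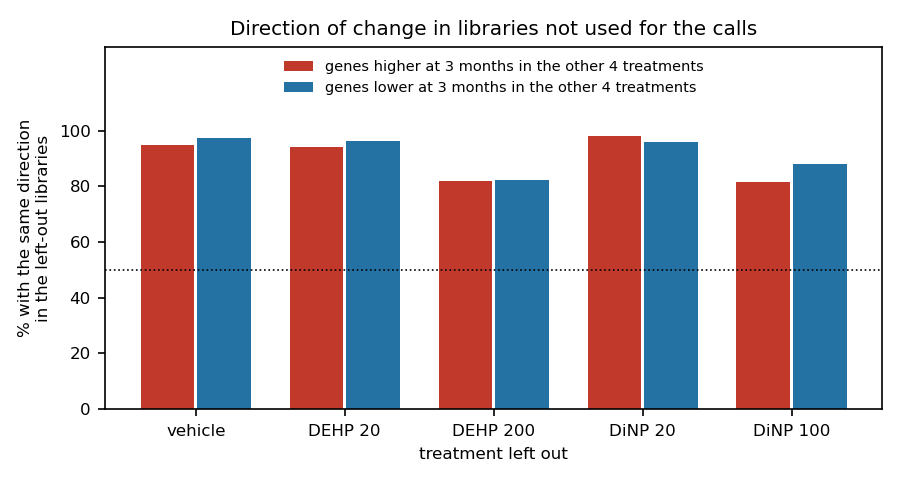
Bars give the percentage of genes called higher (red) or lower (blue) at 3 months in 4 treatments that differed in the same direction in the 6 libraries of the treatment named below, which were not used for the call; the dotted line marks 50%. The shares lie between 81.7% and 98.1%.

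Germ cell genes were lower at 3 months. Of 30 oocyte genes 25 were lower, 0 were higher and 5 did not pass, and all 30 differences were below 0, with a median of -0.62. The zona pellucida genes Zp1, Zp2 and Zp3, which encode the egg coat, differed by -0.77, -0.81 and -0.76. Zp2 had 5.15, 5.92 and 6.65 log2 CPM (lowest, median and highest of 15) at 3 months and 6.30, 6.67 and 7.45 at 0 months, which gave a difference of -0.81 ± 0.15 (SE, n = 15 each, adjusted p = 0.00126). The ranges overlapped at their ends, and the median at 3 months lay below the lowest value at 0 months. Ddx4, the germ cell RNA helicase also known as vasa, had the smallest p of the list, with 0.40, 1.49 and 2.29 log2 CPM at 3 months and 1.92, 2.49 and 3.44 at 0 months (-1.05 ± 0.17, adjusted p = 3.71e-04). The oocyte growth factor gene Gdf9 was lower by the same test (-0.58 ± 0.16, adjusted p = 0.0148). Its partner Bmp15 (-0.49 ± 0.17, adjusted p = 0.0495) lost the call without any 1 of 20 libraries. Padi6 and Nlrp5, of the subcortical maternal complex of the egg, differed by -0.76 and -0.72. Kit, the oocyte receptor of kit ligand, was at -0.33 and did not pass. After the luteal mean was added, 6 of the 30 were lower, with a median of -0.28. With the granulosa cell mean also in the fit 0 of the 30 passed, and Gdf9 and Bmp15 were at 0.0361 and 0.0496.

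Regulators of germ cells and of the primordial follicle were lower as well. Of 15 tested, 10 were lower and 0 higher, with a median of -0.72 (3 of the 10, Zp3, Gdf9 and Bmp15, are also oocyte genes above). Sohlh1, a helix-loop-helix factor of oocytes in primordial follicles, had -1.15, -0.01 and 0.68 log2 CPM at 3 months and 0.41, 1.43 and 2.38 at 0 months. It differed by -1.47 ± 0.18 (adjusted p = 3.21e-05), a 2.77-fold higher level at 0 months. Of 15 libraries at 3 months 3 lay within the range at 0 months, and 1 of 15 lay so the other way. Figla, which drives zona pellucida transcription, had -1.11, -0.23 and -0.01 log2 CPM at 3 months and 0.19, 0.45 and 1.18 at 0 months (-0.97 ± 0.14, adjusted p = 1.44e-04). Here the 15 libraries at 3 months all lay below the 15 at 0 months. The homeobox factors Nobox (-0.87 ± 0.15, adjusted p = 6.43e-04) and Lhx8 (-0.86 ± 0.17, adjusted p = 0.00174) were lower as well. So were the meiotic genes Sycp3, of the synaptonemal complex (-1.30 ± 0.16, adjusted p = 3.21e-05), and, outside the list, Smc1b, of meiotic cohesin (-1.07 ± 0.14, adjusted p = 6.35e-05). Smc1b too was lower in all 15 libraries at 3 months than in any at 0 months. Foxo3, which holds primordial follicles at rest, differed by 0.02. In the fit with the luteal mean 6 of the 15 regulators were lower, among them Sohlh1 (-1.20), Figla (-0.80) and Nobox (-0.56). With both means 0 of the 15 passed, with adjusted p = 0.0971 for Sohlh1, 0.126 for Figla and 0.399 for Nobox by limma.

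**Figure D3:**
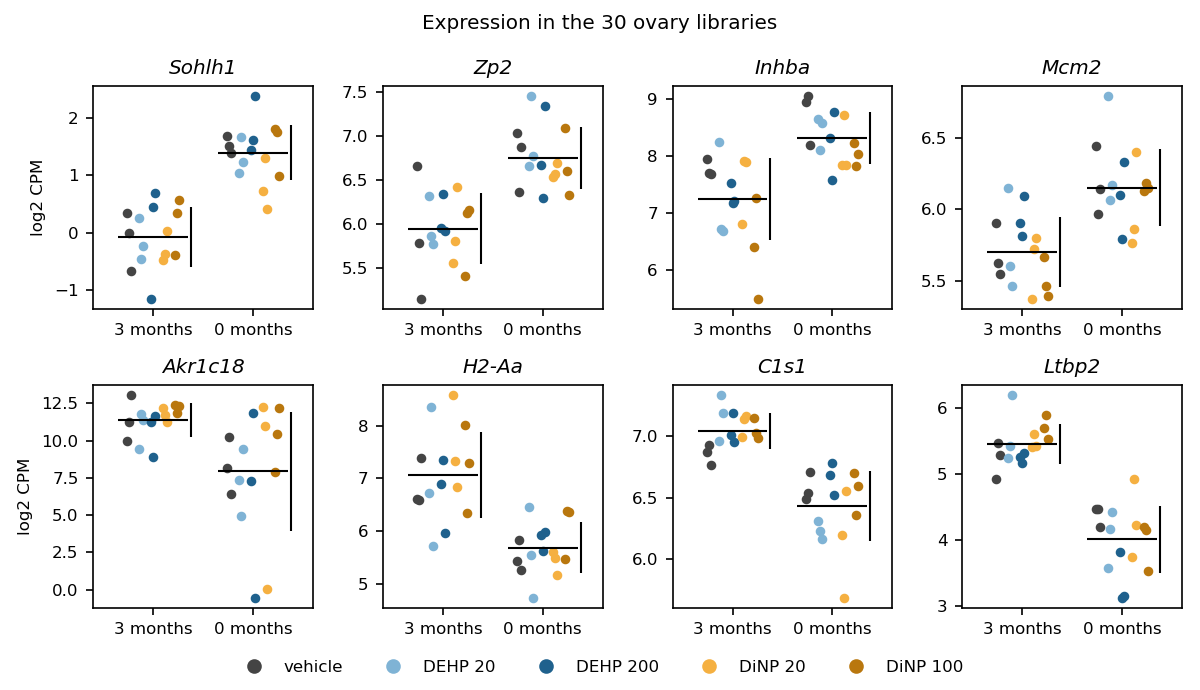
Log2 CPM of 8 genes in the 30 libraries, at 3 months on the left and 0 months on the right of each panel, coloured by treatment; horizontal bars are means of 15 libraries and vertical bars 1 SD. Sohlh1, Zp2, Inhba and Mcm2 sit lower at 3 months, and Akr1c18, H2-Aa, C1s1 and Ltbp2 sit higher, with every treatment on both sides.

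The promoters of 2 oocyte genes are shown because Figla binds E-boxes, of which CACCTG is 1 form. Both were picked among called members for holding the motif, so that its presence in them is no result. Each sequence holds the 250 bases before the start annotated by RefSeq (GRCm38.p6), with CACCTG or its reverse complement CAGGTG in capitals. Padi6 lies on the minus strand at chr4:140742644-140742893 and Zp3 on the plus strand at chr5:135979855-135980104.
Padi6: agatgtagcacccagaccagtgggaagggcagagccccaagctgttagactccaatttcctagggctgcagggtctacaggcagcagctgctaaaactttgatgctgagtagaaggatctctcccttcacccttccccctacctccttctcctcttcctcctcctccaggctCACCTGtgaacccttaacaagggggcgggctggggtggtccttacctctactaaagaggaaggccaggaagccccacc
Zp3: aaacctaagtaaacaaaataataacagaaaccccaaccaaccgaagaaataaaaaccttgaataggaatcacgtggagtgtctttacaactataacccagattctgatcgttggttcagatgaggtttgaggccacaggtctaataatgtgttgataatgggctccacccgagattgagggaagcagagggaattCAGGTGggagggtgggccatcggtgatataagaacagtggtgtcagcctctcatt
CACCTG stood on either strand in 9 of 21 oocyte promoters found (42.9%) and in 7 of 13 promoters of the germ cell regulators (53.8%), against 17.1% of 27025 promoters. The looser form CANNTG, which contains CACCTG, stood in 19 of the 21 (90.5%), against 66% of all. TAATTG, a homeobox motif, stood in 2 of the 21 and in 0 of the 13, against 7.34% of all. The match is a description and not a binding site, and 12 motifs were searched in 6 lists.

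Granulosa cell genes were lower. Of 25 tested 16 were lower and 1 was higher, with a median of -0.45. Inhba, the beta A subunit of activin and inhibin, had 5.49, 7.26 and 8.25 log2 CPM at 3 months and 7.58, 8.23 and 9.05 at 0 months, a difference of -1.07 ± 0.19 (adjusted p = 0.00104). The ranges overlapped, with 6 of 15 libraries at 3 months within the range at 0 months. The beta B subunit Inhbb (-0.94 ± 0.17, adjusted p = 0.00109), the alpha subunit Inha (-0.51 ± 0.12, adjusted p = 0.00606) and the activin-binding follistatin gene Fst (-0.73 ± 0.14, adjusted p = 0.00135) were lower. Nppc, the natriuretic peptide that keeps oocytes in meiotic arrest, was lower (-1.003 ± 0.16, adjusted p = 4.72e-04), and so was its receptor Npr2 (-0.35). Amh, the anti-Müllerian hormone of small growing follicles, had 5.74, 6.75 and 7.51 log2 CPM at 3 months and 6.42, 7.36 and 7.91 at 0 months (-0.57 ± 0.17, adjusted p = 0.0218). These ranges overlapped widely, with 12 of 15 libraries at 3 months within the range at 0 months. Igf1 was the 1 granulosa gene that was higher (0.40 ± 0.13, adjusted p = 0.0356). With the luteal mean in the fit 6 of the 25 were lower, Inhba, Inhbb, Nppc and Nap1l5 among them, and 0 with its own mean added, which holds these same genes.

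Genes of estradiol synthesis and gonadotropin reception were uneven. Hsd17b1, which converts estrone to estradiol, was lower (-0.54 ± 0.14, adjusted p = 0.0116). Cyp19a1, the aromatase gene, differed by -1.07 ± 0.38 (adjusted p = 0.0487) and lost the call without any 1 of 22 libraries. Fshr, the receptor of follicle-stimulating hormone, differed by -0.40 ± 0.15 (adjusted p = 0.0708). Lhcgr, that of luteinizing hormone, was at -0.07 ± 0.32, and Cyp17a1 was at -0.04 ± 0.45. Kitl differed by -0.50 ± 0.33 (adjusted p = 0.295), and 11 of 15 libraries at 3 months lay within the range at 0 months.

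Of 15 theca genes 6 were lower and 0 higher, with a median of -0.29. The hedgehog pathway genes Gli1 (-0.44 ± 0.13, adjusted p = 0.0177), Gli2 (-0.39 ± 0.12, adjusted p = 0.0217) and Ptch1 (-0.29) were among them, as was the theca hormone gene Insl3 (-0.90 ± 0.29, adjusted p = 0.0300). With luteal level in the fit 1 of the 15 was lower. Of 16 smooth muscle and pericyte genes 6 were lower and 0 higher, with Acta2 at -0.35 and Cnn1 at -0.50. That count was 3 without any 1 of 10 libraries (at 3 months DEHP 20 replicate 3, vehicle replicate 3, DEHP 200 replicate 3, DiNP 20 replicate 1 and DiNP 100 replicate 1, and at 0 months vehicle replicate 1, vehicle replicate 2, DEHP 200 replicate 3, DiNP 20 replicate 2 and DiNP 100 replicate 1), and 1 with the luteal mean in the fit.

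Corpus luteum genes were mostly above 0 but few passed. Of 20, 17 differences were above 0 with a median of 0.57, while 5 were higher and 1 was lower. The 5 and the 1 are 25% and 5%, against 10.6% higher and 9.63% lower of all genes. Akr1c18, which inactivates progesterone and rises in regressing corpora lutea, had 8.91, 11.66 and 13.03 log2 CPM at 3 months and -0.55, 8.16 and 12.28 at 0 months. The difference of 3.43 ± 1.10 (adjusted p = 0.0318) is a 10.8-fold higher level at 3 months, and the call was lost without any 1 of 8 libraries. The ranges overlapped, with 12 of 15 libraries at 3 months within the wide range at 0 months. Hsd11b1, which reactivates glucocorticoids, had -0.36, 2.37 and 4.09 log2 CPM at 3 months and -1.32, 0.17 and 1.23 at 0 months (2.10 ± 0.35, adjusted p = 6.84e-04). Sfrp4, a secreted Wnt binding protein, was higher by 2.05 ± 0.56 (adjusted p = 0.0138), and Hsd3b1, which makes progesterone, by 0.67 ± 0.15 (adjusted p = 0.00530). Star, which carries cholesterol into mitochondria, had 8.81, 12.80 and 13.34 log2 CPM at 3 months and 6.18, 10.62 and 12.88 at 0 months, and missed the threshold (1.69 ± 0.61, adjusted p = 0.0520). Cyp11a1, the first enzyme of steroid synthesis, was at 0.72 ± 0.33 (adjusted p = 0.127). The count of 5 was 13 without DEHP 200 replicate 2 at 0 months, 3 without DEHP 200 replicate 3 at 0 months, and 8 without DiNP 100 replicate 3 at 0 months or DEHP 200 replicate 2 at 3 months. It was 1 with the luteal mean in the fit, which holds these same genes.

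**Figure D4:**
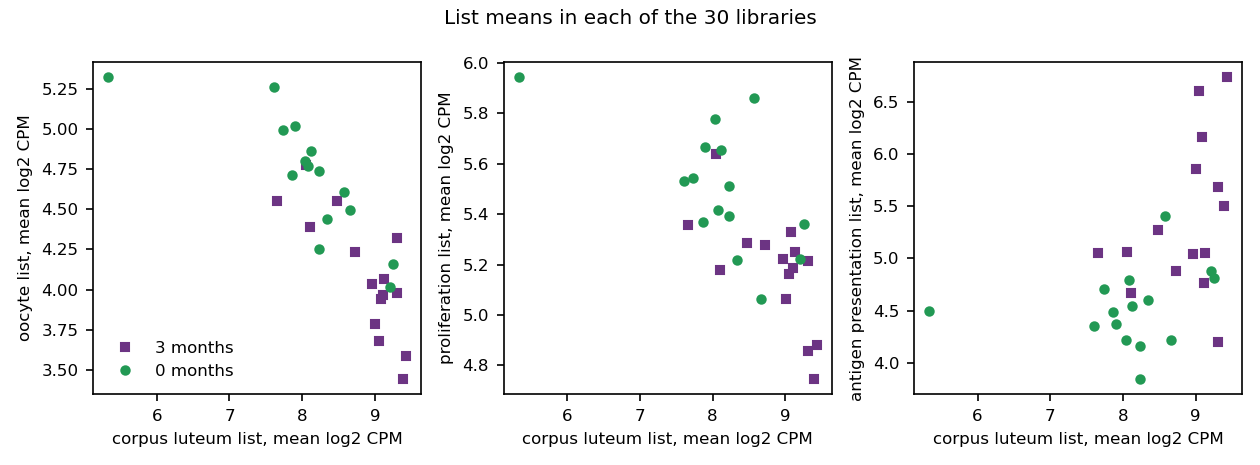
For each library, the mean log2 CPM of the oocyte, proliferation and antigen presentation lists is plotted against that of the corpus luteum list, with 3 months as purple squares and 0 months as green circles. The libraries at 3 months sit toward a high luteal mean, from 7.66 to 9.43, and those at 0 months spread from 5.33 to 9.26.

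Genes that supply cholesterol for steroid synthesis were all above 0 (28 of 28, median 0.42), against 50.7% of all genes tested, but 2 passed. These were the sterol pathway enzymes Msmo1 (0.74 ± 0.24, adjusted p = 0.0317) and Ebp (0.50 ± 0.17, adjusted p = 0.0466), whose calls were lost without any 1 of 12 and of 21 libraries. The 2 are 7.14% of the list, against 10.6% higher of all genes. Leaving out 1 library gave 0 to 11 higher, the 11 without DEHP 200 replicate 2 at 0 months. After the luteal mean was added, the median of the list was -0.02 and 0 members passed.

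Most macrophage and antigen presentation genes were higher at 3 months. Of 20 macrophage genes 16 were higher and 1 lower, with a median of 0.54. Csf1r, the receptor through which macrophages survive, had 4.93, 5.42 and 6.47 log2 CPM at 3 months and 4.38, 4.91 and 5.18 at 0 months (0.66 ± 0.12, adjusted p = 0.00109). Adgre1, which encodes the F4/80 antigen, was higher by 0.70 ± 0.16 (adjusted p = 0.00477), and the complement C1q chains C1qa, C1qb and C1qc by 0.78, 0.73 and 0.68. The 1 lower gene was Lyve1 (-0.45 ± 0.14, adjusted p = 0.0320), which marks lymphatic vessels as well as some resident macrophages. The mean of the list ran from 3.69 to 4.86 log2 CPM at 3 months and from 3.22 to 4.03 at 0 months. Genes of lipid-laden and multinucleated macrophages passed in part: 4 of 19 were higher and 1 was lower. These are 21.1% and 5.26%, against 10.6% higher and 9.63% lower of all genes. Spp1, osteopontin, was higher by 2.17 ± 0.47 (adjusted p = 0.00387), Lgals3, galectin 3, by 1.13 ± 0.27 (adjusted p = 0.00601) and Plin2, of lipid droplets, by 0.35 ± 0.08 (adjusted p = 0.00379), while Gpnmb was at -0.37. In the fit with the luteal mean 3 macrophage genes were higher, and 1 of the lipid-laden list, against 0 of both with the granulosa cell mean added. Of the lipid-laden list 7 were higher without DEHP 200 replicate 2 at 0 months.

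Complement genes included several of the smallest p-values. Of 19, 8 were higher and 2 lower, with a median of 0.29. C1s1, a protease of the C1 complex, had 6.76, 7.01 and 7.33 log2 CPM at 3 months and 5.69, 6.52 and 6.78 at 0 months (0.61 ± 0.07, adjusted p = 7.92e-06), so that the ranges touched at 1 end. Its partner C1ra was higher by 0.50 ± 0.05 (adjusted p = 7.92e-06) and the next protease, C2, by 1.16 ± 0.15 (adjusted p = 7.39e-05). C7, of the membrane attack complex, differed by -0.98 ± 0.25 (adjusted p = 0.00957) and Masp1, a protease of the lectin pathway, by -0.98 ± 0.14 (adjusted p = 1.08e-04). With the luteal mean in the fit 5 were higher and 1 was lower, and with both means 1 was higher and 0 lower.

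Antigen presentation genes were higher in 16 of 19 and lower in 0, and all 19 differences were above 0, with a median of 0.76. The size was uneven between treatments. The list mean differed by 1.08 in vehicle, 0.24 in DEHP 20, 0.33 in DEHP 200, 1.57 in DiNP 20 and 1.00 in DiNP 100. Whether the list differed between treatments was not tested. H2-Aa, a class II chain, had 5.72, 6.89 and 8.57 log2 CPM at 3 months and 4.74, 5.60 and 6.45 at 0 months, a 2.6-fold higher level at 3 months (1.38 ± 0.25, adjusted p = 0.00109). The ranges overlapped at 1 end, with 3 of 15 libraries at 3 months within the range at 0 months. The class II partners Cd74 (1.28 ± 0.23, adjusted p = 0.00114) and H2-Ab1 (1.17 ± 0.24, adjusted p = 0.00280) and the class II transactivator Ciita (1.03 ± 0.25, adjusted p = 0.00817) were higher. So were B2m, the light chain of class I (0.95 ± 0.20, adjusted p = 0.00360), and the peptide transporter Tap1 (0.51). Class I and class II genes are polymorphic and have close copies, and the mice were outbred, so reads may be split unevenly between copies. H2-T22, a class I gene outside the list, had -0.63, 1.52 and 5.61 log2 CPM at 3 months and 0.31, 4.66 and 5.43 at 0 months (-1.87 ± 0.61, adjusted p = 0.0332). That difference had the lowest value of all called genes, and its call was lost without any 1 of 11 libraries. With luteal level in the fit 5 of the 19 were higher, H2-Aa, Cd74 and H2-Ab1 among them, and the median was 0.68. With both means 0 passed and the median was 0.41.

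Interferon response genes were higher in 11 of 23 and lower in 0, with a median of 0.58. Their list mean differed by 0.77 in vehicle, 0.14 in DEHP 20, 0.18 in DEHP 200, 0.71 in DiNP 20 and 0.56 in DiNP 100. This unevenness was not tested for the list. The transcription factor gene Irf9 was higher by 0.58 ± 0.13 (adjusted p = 0.00468) and the RNA sensor Ifih1 by 0.64 ± 0.12 (adjusted p = 0.00109). Ifit1, an antiviral RNA binding protein, had 0.89, 1.82 and 2.81 log2 CPM at 3 months and 0.06, 0.82 and 2.01 at 0 months (0.80 ± 0.22, adjusted p = 0.0128), and 10 of 15 libraries at 3 months lay within the range at 0 months. Oas2 and Ifit2 were at 0.13 and 0.01. After the luteal mean was added, Ifih1 was the 1 member that passed, and the median was 0.43. With both means 0 passed.

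Promoters of 2 interferon genes and 2 antigen presentation genes are shown for the motifs by which these families are known. Each was picked among called members for holding its motif. For Ifit1 (chr19:34640639-34640888, plus strand) and Rsad2 (chr12:26456453-26456702, minus strand) the capitals mark GAAA, any 2 bases and GAAA, or the reverse complement of this run, the core of the interferon-stimulated response element.
Ifit1: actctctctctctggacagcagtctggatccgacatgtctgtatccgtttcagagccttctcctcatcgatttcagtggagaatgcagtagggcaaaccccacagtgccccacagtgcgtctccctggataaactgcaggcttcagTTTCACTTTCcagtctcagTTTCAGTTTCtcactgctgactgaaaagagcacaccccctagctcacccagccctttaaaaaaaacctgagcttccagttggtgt
Rsad2: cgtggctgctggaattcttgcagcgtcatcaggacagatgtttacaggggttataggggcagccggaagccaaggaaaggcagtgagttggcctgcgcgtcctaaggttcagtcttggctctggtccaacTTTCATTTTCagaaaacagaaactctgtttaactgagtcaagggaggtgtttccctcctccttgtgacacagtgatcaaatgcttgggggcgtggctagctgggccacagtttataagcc
For H2-T23 (chr17:36032702-36032951, minus strand) and H2-Aa (chr17:34287824-34288073, minus strand) the capitals mark ATTGG or its reverse complement CCAAT, the core of the Y box known from class II promoters.
H2-T23: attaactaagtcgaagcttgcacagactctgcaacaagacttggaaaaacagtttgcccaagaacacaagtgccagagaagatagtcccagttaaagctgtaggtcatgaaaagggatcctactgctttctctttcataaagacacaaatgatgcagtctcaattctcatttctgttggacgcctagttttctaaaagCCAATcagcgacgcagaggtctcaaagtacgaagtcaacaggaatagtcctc
H2-Aa: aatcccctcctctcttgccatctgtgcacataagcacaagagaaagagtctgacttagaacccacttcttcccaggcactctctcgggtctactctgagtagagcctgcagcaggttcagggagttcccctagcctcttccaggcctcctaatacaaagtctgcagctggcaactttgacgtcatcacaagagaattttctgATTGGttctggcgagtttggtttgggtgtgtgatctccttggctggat
The interferon motif stood in 8 of 16 interferon promoters (50%) and in 2 of 14 antigen presentation promoters (14.3%), against 3.04% of all. ATTGG stood in 12 of the 14 antigen presentation promoters (85.7%), against 34.5% of all.

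Cell cycle genes were lower. Of 30 proliferation genes 22 were lower, 0 were higher and all 30 differences were below 0, with a median of -0.35. Mcm2, of the helicase that opens DNA for replication, had 5.38, 5.67 and 6.15 log2 CPM at 3 months and 5.76, 6.14 and 6.79 at 0 months (-0.45 ± 0.09, adjusted p = 0.00231), and the median at 3 months lay below all values at 0 months. Rrm2, which supplies deoxynucleotides, was lower by 0.48 on the log2 scale (-0.48 ± 0.10, adjusted p = 0.00326), and Tyms, which makes thymidylate, by 0.35 (-0.35 ± 0.08, adjusted p = 0.00364). Mki67 was at -0.36 and missed the threshold (adjusted p = 0.0506), and Pcna was at -0.08. The count of 22 lay between 12 and 14 without any 1 of 11 libraries (at 3 months DEHP 20 replicate 1, vehicle replicate 3, DEHP 200 replicate 1, DEHP 200 replicate 3, DiNP 20 replicate 2 and DiNP 100 replicate 1, and at 0 months DEHP 20 replicate 3, vehicle replicate 1, DEHP 200 replicate 3, DiNP 20 replicate 3 and DiNP 100 replicate 1), was 11 without the 3 libraries that stood apart from their groups (DEHP 200 replicates 2 and 3 at 0 months and DiNP 100 replicate 3 at 3 months), and was 1 with the luteal mean and 0 with both means in the fit. None of the 22 differed by 1.5-fold or more.

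Both proliferation promoters shown were picked among called members for holding the CCAAT box, a common element of cell cycle promoters. Capitals mark ATTGG or CCAAT in Mcm2 (chr6:88898781-88899030, minus strand) and Rrm2 (chr12:24708004-24708253, plus strand).
Mcm2: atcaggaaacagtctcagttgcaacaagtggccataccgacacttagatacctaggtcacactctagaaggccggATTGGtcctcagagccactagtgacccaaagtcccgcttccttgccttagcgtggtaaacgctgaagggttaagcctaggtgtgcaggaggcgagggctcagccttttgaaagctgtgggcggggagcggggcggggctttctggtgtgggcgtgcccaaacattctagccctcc
Rrm2: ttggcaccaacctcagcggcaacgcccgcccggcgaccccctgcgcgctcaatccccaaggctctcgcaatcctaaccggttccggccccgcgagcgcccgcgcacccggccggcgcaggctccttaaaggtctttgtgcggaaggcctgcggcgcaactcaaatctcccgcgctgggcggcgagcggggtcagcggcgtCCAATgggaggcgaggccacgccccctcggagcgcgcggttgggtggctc
The motif stood in 23 of 25 proliferation promoters (92%), against 34.5% of all. The 3 E2F motifs searched in the same promoters stood in 1, 2 and 3 of the 25, against 0.929%, 0.437% and 1.29% of all.

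Of 22 genes of DNA methylation and chromatin 12 were lower and 1 was higher, with a median of -0.22. Uhrf1, which brings the maintenance methyltransferase to replicated DNA, was lower (-0.66 ± 0.11, adjusted p = 4.26e-04), and so was that methyltransferase gene, Dnmt1 (-0.26 ± 0.07, adjusted p = 0.0149). Kdm1b, a histone demethylase of growing oocytes, had 5.14, 5.32 and 5.39 log2 CPM at 3 months and 5.404, 5.58 and 5.87 at 0 months (-0.31 ± 0.05, adjusted p = 3.26e-04), with no overlap between the times. Ezh2, of Polycomb complex 2, was lower by 0.41 on the log2 scale (-0.41 ± 0.08, adjusted p = 0.00198). In the fit with the luteal mean 3 of the 22 were lower, and 0 with both means. Of 27 DNA repair genes 6 were lower (22.2%, against 9.63% of all genes), 1 was higher and 20 did not pass, with a median of -0.05. Brca1 (-0.51 ± 0.10, adjusted p = 0.00216), of homologous recombination, was among the lower ones, and that count was 3 without any 1 of 4 libraries (at 3 months vehicle replicate 3, DEHP 200 replicate 3 and DiNP 100 replicate 1, and at 0 months DiNP 20 replicate 3) and 1 with the luteal mean in the fit.

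Among genes of cell cycle arrest Cdkn2a and Cdkn2b, which encode inhibitors of the G1 phase kinases, were higher. Cdkn2a had -0.36, 1.92 and 3.92 log2 CPM at 3 months and -1.18, 0.11 and 1.22 at 0 months (1.69 ± 0.38, adjusted p = 0.00481), and Cdkn2b differed by 1.77 ± 0.53 (adjusted p = 0.0221). With the luteal mean in the fit neither passed, at 1.24 and 0.63. The whole list of 17 held 3 higher and 2 lower genes (17.6% and 11.8%, against 10.6% and 9.63% of all genes) and a median of -0.01. Bmi1 and Cbx7, of Polycomb complex 1, which is known to repress the Cdkn2a locus, were among the 10 higher genes of smallest p. Bmi1 had 6.40, 6.52 and 6.73 log2 CPM at 3 months and 6.08, 6.27 and 6.48 at 0 months (0.32 ± 0.03, adjusted p = 1.01e-05). Cbx7 had 4.48, 4.79 and 4.997 at 3 months and 3.91, 4.25 and 4.45 at 0 months (0.54 ± 0.07, adjusted p = 3.21e-05), with no overlap.

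Of 32 extracellular matrix genes 13 were lower, 1 was higher and 18 did not pass, with a median of -0.22. Eln, elastin, was lower by 0.52 on the log2 scale (-0.52 ± 0.11, adjusted p = 0.00292), versican (Vcan) by 0.82 (-0.82 ± 0.18, adjusted p = 0.00343) and fibronectin (Fn1) by 0.60 (-0.60 ± 0.13, adjusted p = 0.00410). The collagen I genes Col1a1 and Col1a2 were at -0.39 and -0.34 and also passed, while the basement membrane collagens Col4a1 and Col4a2 were at -0.04 and -0.01. The 1 higher gene was Tnc, tenascin C (1.40 ± 0.40, adjusted p = 0.0184). Of 18 genes of matrix turnover Mmp9 (1.39 ± 0.21, adjusted p = 2.88e-04) and Plau (0.58 ± 0.09, adjusted p = 3.71e-04), both proteolytic enzymes, were higher and 0 were lower. That is 11.1% higher, close to the 10.6% of all genes, and the median of the 18 was 0.08. With luteal level in the fit 8 matrix genes were lower, and Mmp9 and Plau were higher. Elastin was at -0.70 in that fit. With both means 2 matrix genes were lower and 0 genes of matrix turnover passed.

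Imprinted genes that regulate growth were lower in 7 of 21 and higher in 1, with a median of -0.30. Peg3 was lower by 0.60 on the log2 scale (-0.60 ± 0.09, adjusted p = 2.96e-04), Mest by 0.61 (-0.61 ± 0.13, adjusted p = 0.00346) and Ndn by 0.38 (-0.38 ± 0.07, adjusted p = 0.00164). H19 (-0.53) passed and Igf2 (-0.06) did not. The count was 11 without DEHP 200 replicate 2 at 0 months and 3 with the luteal mean in the fit.

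Genes of hormone reception and defence were higher in part. Of 21 steroid and related receptors 6 were higher and 1 lower (28.6% and 4.76%, against 10.6% and 9.63% of all genes). Nr3c2, the mineralocorticoid receptor, differed by 0.73 ± 0.11 (adjusted p = 3.10e-04), the thyroid hormone receptor Thrb by 0.78 ± 0.15 (adjusted p = 0.00157) and the glucocorticoid receptor Nr3c1 by 0.25 ± 0.07 (adjusted p = 0.0232). Esr1, estrogen receptor alpha, was higher by 0.33 ± 0.11 (adjusted p = 0.0305) and lost the call without any 1 of 9 libraries, and Esr2, estrogen receptor beta of granulosa cells, was at -0.41 ± 0.19 (adjusted p = 0.120). The 1 lower gene was Nr5a2 (-0.44 ± 0.13, adjusted p = 0.0217), a granulosa and luteal transcription factor. Of 28 antioxidant genes 7 were higher and 1 lower (25% and 3.57%). The metallothioneins Mt1 and Mt2 were at 0.91 ± 0.20 (adjusted p = 0.00383) and 0.80 ± 0.16 (adjusted p = 0.00174), and heme oxygenase (Hmox1) at 0.72. The count of 7 was 11 without DEHP 200 replicate 2 at 0 months and 1 with the luteal mean in the fit. Of 20 xenobiotic response genes 6 were higher (30%) and 0 lower. Among the 6 were Por (0.41 ± 0.08, adjusted p = 0.00139), which passes electrons to cytochromes P450, and the glutathione transferase genes Gsta3 (0.69) and Gstm1 (0.34), which have close copies. After the luteal mean was added, 3 of the 20 were higher, and 4 of the receptors.

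**Figure D5:**
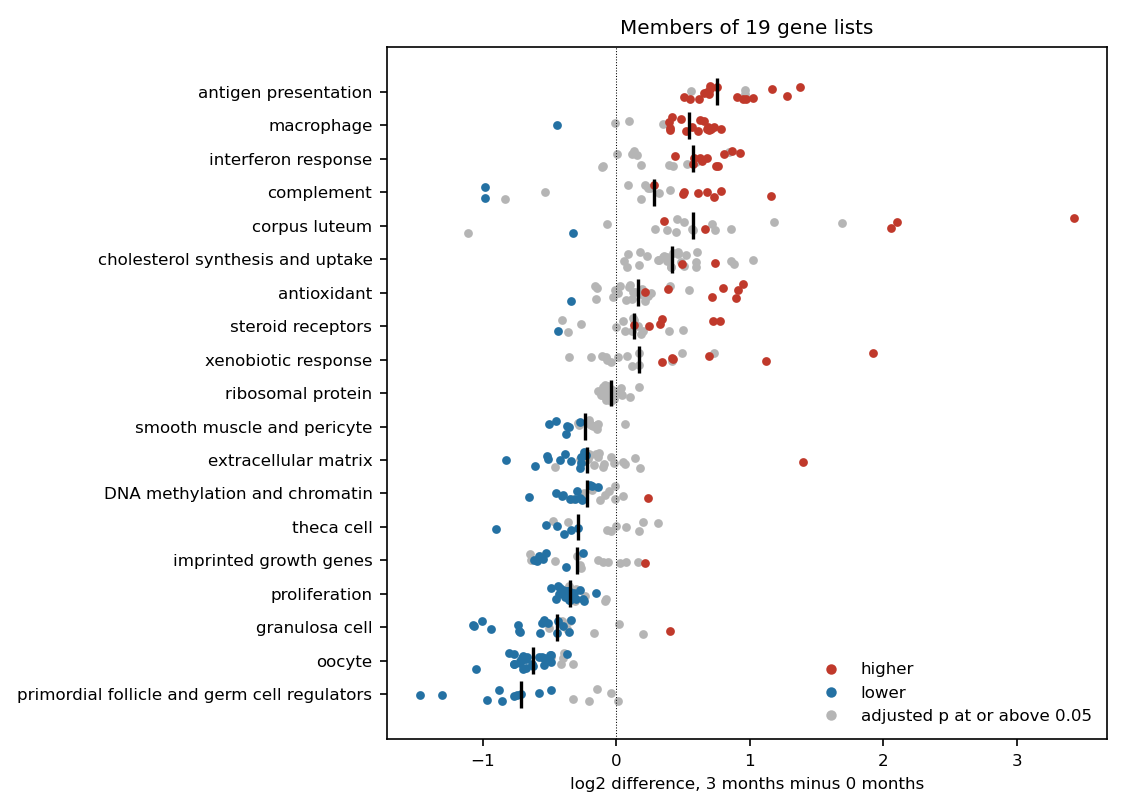
Each point is a member of 1 of 19 gene lists, placed by its log2 difference (3 months minus 0 months); red members were higher, blue lower and grey did not pass, and black bars mark list medians. Antigen presentation has the highest median (0.76), the germ cell regulators the lowest (-0.72), and 0 of 30 ribosomal protein genes passed.

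Outside these lists, the gene of smallest p was Ltbp2 (chr12:84783212-84876558), a binding partner of elastic fibres. It had 4.92, 5.42 and 6.19 log2 CPM at 3 months and 3.12, 4.16 and 4.92 at 0 months, a 2.72-fold higher level at 3 months (1.45 ± 0.12, adjusted p = 2.69e-07), and the ranges met at 4.92. Gm7609, a predicted gene with close copies nearby, so that reads may be split between them, had 0.90, 2.24 and 3.07 log2 CPM at 3 months and -2.46, -0.81 and 0.53 at 0 months (2.78 ± 0.24, adjusted p = 2.69e-07). Skap2, an adaptor of integrin signalling in leukocytes, was higher by 0.47 ± 0.05 (adjusted p = 2.48e-06). Cxcr6, the receptor of the chemokine Cxcl16, had 0.5699, 1.33 and 1.95 log2 CPM at 3 months and -1.31, -0.32 and 0.5673 at 0 months (1.35 ± 0.16, adjusted p = 1.60e-05). Its ligand Cxcl16 was higher as well (0.66 ± 0.11, adjusted p = 5.22e-04). Optn, an autophagy receptor, and Casp1, the protease of inflammasomes, were higher by 0.57 ± 0.07 (adjusted p = 1.93e-05) and 0.92 ± 0.11 (adjusted p = 3.21e-05). Cbx7, Skap2, Gm7609 and Cxcr6 were the 4 genes (0.0271%) with no overlap on the higher side.

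On the lower side the smallest p belonged to Sox11, a transcription factor of progenitor cells, with 0.69, 1.36 and 2.73 log2 CPM at 3 months and 2.17, 2.75 and 3.57 at 0 months (-1.38 ± 0.15, adjusted p = 1.01e-05). Casq2, the calcium store protein calsequestrin 2, was at -0.97 ± 0.11 (adjusted p = 1.26e-05). Necab1, a calcium-binding protein, was at -1.44 ± 0.19 (adjusted p = 8.11e-05) and Dpf3, a chromatin remodelling subunit, at -0.68 ± 0.09 (adjusted p = 8.11e-05). Fndc5 (-0.82 ± 0.11, adjusted p = 8.15e-05) and 1700066C05Rik (-1.22 ± 0.16, adjusted p = 5.89e-05) were lower as well. Smc1b, Kdm1b, Figla and Fndc5 were among the 5 genes (0.0339%) with no overlap on the lower side. Of the genes of smallest p in both directions, the 19 reported here all passed with the luteal mean in the fit, and 7 of the 19 with the granulosa cell mean added.

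The largest differences, that of Gm7609 above (2.78) aside, belonged to genes that varied widely between libraries. After Akr1c18 came Cyp4f18, which degrades leukotrienes (3.08 ± 1.09, adjusted p = 0.0485). Behind Gm7609 and Cd28 followed Zfp979, of a zinc finger family with close copies (2.69 ± 0.95, adjusted p = 0.0483). The calls of Cyp4f18 and Zfp979 were lost without any 1 of 19 and of 23 libraries. Zfp979 had its lowest value, the floor of -3.34 log2 CPM, at both times. Cd28, known as a co-stimulator of T cells, had 0.28, 5.31 and 6.57 log2 CPM at 3 months and -1.82, 2.00 and 5.05 at 0 months (2.72 ± 0.77, adjusted p = 0.0170). The T cell receptor component Cd3e, which was below the filter, had at most 0.72 log2 CPM at 3 months and -0.38 at 0 months. Its mean differed by 0.96, also higher at 3 months. Whether the Cd28 difference came from T cells was not tested. In the fit with the luteal mean the Cd28 difference was 1.06 and did not pass. On the lower side Brinp2 (-1.80 ± 0.42, adjusted p = 0.00592), Comp, cartilage oligomeric matrix protein (-1.72 ± 0.40, adjusted p = 0.00606), Eya4, a transcriptional coactivator (-1.63 ± 0.28, adjusted p = 7.80e-04), and Fam196b (-1.63 ± 0.32, adjusted p = 0.00216) followed H2-T22.

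Treatments were then asked for separately. Within single treatments 3 libraries stand against 3, and few genes passed: 1 in vehicle (6.78e-03% of the genes tested), 3 in DEHP 20 (0.0204%), 2 in DEHP 200 (0.0136%), 3 in DiNP 20 (0.0204%) and 7 in DiNP 100 (0.0475%). These counts rest on few libraries: without DiNP 100 replicate 2 at 3 months DiNP 100 had 2071, and with libraries weighted by their quality (array weights of limma) vehicle had 531, DEHP 20 had 1366, DEHP 200 had 1, DiNP 20 had 114 and DiNP 100 had 2227. The 1 gene in vehicle was Gm7609 (4.07 ± 0.53, adjusted p = 0.00125). A test of whether the time difference varies between the 5 treatments called 0 genes (0%), with 389 at an unadjusted p under 0.05. A test of the 4 dosed groups against vehicle also called 0, with 210 at that level, where chance alone would give 737. Its smallest p belonged to Obox2, a homeobox gene (adjusted p = 0.999994 by limma). Sohlh1 was lower in 5 of 5 treatments, and so were Figla, Zp2, Inhba and Mcm2. H2-Aa, C1s1, Csf1r, Akr1c18 and Ltbp2 were higher in 5 of 5. All these genes were called on the mean of the same 5 differences. Of all genes tested 32.3% had 1 sign in all 5 treatments with no test applied. Ltbp2 differed by 0.84 in vehicle, 1.56 in DEHP 20, 1.88 in DEHP 200, 1.19 in DiNP 20 and 1.75 in DiNP 100, and the dosed groups exceeded vehicle by 0.75 ± 0.31, which did not pass. A p that misses the threshold does not show that the treatments acted alike.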

How the data were processed

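Messenger RNA of whole ovaries was sequenced as 30 stranded TruSeq libraries with single reads on an Illumina HiSeq, per the labels' protocols. FastQC 0.11.8, Salmon 0.11.3, edgeR and R 3.5.2, with GRCm38.p6, are named in the submitters' processing notes. The authors deposited 1 table of log2 CPM, whose lowest value is -3.343 (0.0986 CPM). Between 23.0% and 39.4% of low values were whole reads within 0.1, so that read counts were not recovered and depth is approximate.

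Limma 3.58.1 (in R 4.3.3, with statmod 1.5.0) was run on the 14740 genes whose log2 CPM averaged above 0. It estimated the 10 group means and let the prior variance follow expression level, leaving 20 residual degrees of freedom, 2.85 prior ones and a median residual SD of 0.246. The contrast was the mean over 5 treatments of 3 months minus 0 months, and p-values were Benjamini-Hochberg adjusted over all of these. A value after ± is a standard error. Values given in a row are the lowest, median and highest of 15 libraries. The fit was also run on simulated data with noise drawn independently for each gene. Variation shared between genes, such as luteal level, was not simulated.

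The groups compared, the 45 gene lists and the alternatives were chosen with earlier results of these data known, so that a list's direction is no independent support. The luteal mean as covariate, the fit without the libraries that stood apart and the reading of direction in a left-out treatment were added after seeing the data. Named genes are the 10 of smallest p and the 5 of largest difference in each direction, the gene of smallest p in each treatment test, 16 reproductive genes, and up to 4 members of smallest p in each list, narrowed to called members after values were seen; further list members, Cd3e and Pcna among them, were named after their values were seen. Some genes that the rule names are not reported here. Of the identifiers 17770 (98.6%) matched the RefSeq table, and promoters (250 bases) were RefSeq's.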

Additional observations from a re-analysis of the deposited data

Results flagged for a closer look

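Pgf, which encodes placental growth factor, had the smallest p in the test of whether the time difference varies between treatments. Its libraries did not overlap between the times in opposite directions: the difference was -0.55 in vehicle and -0.67 in DEHP 200, against 0.61 in DEHP 20 and 0.40 in DiNP 100. By the limma F test across all genes it did not pass (adjusted p = 1.00), and over all treatments it differed by 0.04 ± 0.09.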

How the results depend on the processing

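Over all treatments 1566 genes were higher and 1420 lower. Counts stayed within 1.5 times of these with median centring (1468 and 1505), quantile normalization (1324 and 1572), no filter (1664 and 1602), a mean above 2 (1380 and 1110) and an additive fit (1708 and 1545). Leaving out 1 library gave 1122 to 2336 higher and 1025 to 2053 lower, 0 to 1 genes in each treatment test, and within treatments 1 to 4 (vehicle), 0 to 5 (DEHP 20), 0 to 5 (DEHP 200), 0 to 7 (DiNP 20) and 0 to 2071 (DiNP 100, highest without its replicate 2 at 3 months). Array weights gave 3457 higher and 3203 lower, and within treatments 531 (vehicle), 1366 (DEHP 20), 1 (DEHP 200), 114 (DiNP 20) and 2227 (DiNP 100). The luteal mean as covariate left 303 and 224, with 1 in DEHP 200, 12 in DiNP 20 and 0 in DiNP 100. The luteal and granulosa cell means together left 17 and 6, with 2 in vehicle, 1 in DEHP 20 and 0 in the others. A difference of at least 1.5-fold was reached by 400 and 325. Vehicle alone gave 1 and 0, and the dosed groups alone 994 higher. Fewer samples entered when a treatment was left out: 863 and 862 without vehicle (0 in DEHP 20 and DiNP 100), 747 and 582 without DEHP 20 (1 in DiNP 100), 882 and 920 without DiNP 20 (1 in DEHP 200, 3 in DiNP 100), 907 lower without DiNP 100 (1 in DEHP 200), and without DEHP 200 1 in DEHP 20, 5 in DiNP 20 and 4 in DiNP 100. At an adjusted p under 0.10 vehicle had 4 and DiNP 20 had 19. DiNP 100 had 2 with median centring, quantile normalization, no filter or no trend, and 0 without the 3 libraries that stood apart. Vehicle had 0 with a mean above 2, and DiNP 20 had 5 with no trend. For these changes the cause was not tested.

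Replicate numbers do not pair the libraries (correlations from -0.514 to 0.172, 3 of 15 over 0.1). With the replicate block 1445 genes were higher and 1316 lower, with 1 in DEHP 200 and 2 in DiNP 100.

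Some log2 differences turned round. Array weights gave Obox2 -0.0399 and Lhcgr 0.34. The luteal mean gave Cyp11a1 -0.16 and Cyp17a1 0.49. Both means gave Cyp11a1 -0.0197, Cyp17a1 1.75, Cyp19a1 0.55, Hsd17b1 0.22, Fshr 0.19, Amh 0.16, Inha 0.12, Gdf9 0.0361, Bmp15 0.0496, Gli1 0.0580, Gpx7 0.0301, Xrcc5 0.0171, Angpt2 0.10 and Tagln 0.0059. Vehicle alone gave Pgf -0.55, Lhcgr 0.0583, Kitl 0.30, Gstp1 -0.0731, Dnajb9 -0.0536, Dnajc3 -0.0290 and Hspb1 -0.34. Without vehicle Obox2 was -0.49 and Cyp17a1 0.10, without DEHP 20 Pgf -0.11 and Cyp17a1 0.0302, without DEHP 200 Cyp17a1 0.16, without DiNP 20 Pgf -0.0519 and Lhcgr 0.0064, and without DiNP 100 Pgf -0.0526. Without 1 library Cyp17a1 ran from -0.37 to 0.18 and Lhcgr from -0.22 to 0.0666. Of 152 called genes under the naming rule, 127 kept the call without any 1 library, 72 with the luteal mean and 10 with the luteal and granulosa cell means. Depth limits genes near the floor, such as Zfp979.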

Other observations

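Lymphocyte genes lay low. Of 5 tested T and NK cell genes Il2rb, an interleukin receptor chain, was higher (0.50 ± 0.13, adjusted p = 0.0121) and 0 were lower. The other 15 of the list were not tested in that fit. With no filter on mean level 4 genes of the list were higher and 0 lower. The 3 tested B and plasma cell genes were higher, with the immunoglobulin joining chain Jchain at 1.45 ± 0.28 (adjusted p = 0.00184). Of 16 cytokine and chemokine genes 4 were higher (25%, against 10.6% of all genes). That count was 2 without DEHP 200 replicate 3 at 0 months. With the luteal mean in the fit 0 of the T and NK cell genes, 2 of the B and plasma cell genes and 3 of the chemokine genes were higher, and with the granulosa cell mean added 0 passed in each.

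Of 25 unfolded protein response genes 7 were higher and 0 lower (28% higher, against 10.6% of all genes). Chac1, which degrades glutathione, was at 1.46 ± 0.38 (adjusted p = 0.0109), while the chaperone Hspa5 was at 0.06. With the luteal mean in the fit 1 of the 25 was higher. Of 22 heat shock genes 2 were higher and 0 lower (9.09% higher, against 10.6% of all genes). Leaving out 1 library gave 0 to 4 higher heat shock genes. Of 19 clock genes 1 was lower and 4 were higher (21.1%, against 10.6% of all genes). Bhlhe40, a repressor of the clock, was among these 4 (1.39 ± 0.34, adjusted p = 0.00786). That count lay between 1 and 2 without any 1 of 9 libraries (at 3 months DEHP 20 replicate 2, DEHP 20 replicate 3, DEHP 200 replicate 1 and DEHP 200 replicate 3, and at 0 months DEHP 20 replicate 2, vehicle replicate 2, DEHP 200 replicate 3, DiNP 20 replicate 3 and DiNP 100 replicate 1), and 0 clock genes passed with the luteal mean in the fit. Of 24 vascular genes Eng, the endothelial co-receptor endoglin (0.45 ± 0.11, adjusted p = 0.00900), was higher and 4 were lower, among them the lymphatic factors Prox1 (-0.51 ± 0.12, adjusted p = 0.00532) and Vegfd (-0.36 ± 0.10, adjusted p = 0.0125), while Pecam1 was at 0.09. Of the 24 vascular genes 4.17% were thus higher and 16.7% lower, against 10.6% and 9.63% of all genes. With the luteal mean in the fit 0 vascular genes passed. Of 32 oxidative phosphorylation genes 1 was higher (3.12%, against 10.6% of all genes) and 0 were lower. Of 30 ribosomal protein genes 0 passed. Leaving out 1 library gave 0 to 6 higher oxidative phosphorylation genes, the 6 without DEHP 200 replicate 2 at 0 months. Without the 3 libraries that stood apart 5 were higher.

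Of 17 stromal genes 2 were higher and 7 lower, the growth factor receptor Pdgfra among the higher ones, and 3 were lower with the luteal mean in the fit. The 2 and the 7 are 11.8% higher and 41.2% lower, against 10.6% and 9.63% of all genes.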
